A study of Mus musculus with 12 samples.

Results

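The 10 tubulin genes described here, *Tuba1a*, *Tuba1b*, *Tuba1c*, *Tuba4a*, *Tubb2a*, *Tubb2b*, *Tubb3*, *Tubb4b*, *Tubb5* and *Tubb6*, encode alpha and beta tubulin isotypes of the mouse. They were chosen by gene symbol, with no measured value in the rule but with earlier results of these data known. All 10 were found among the 55401 genes of the count table. All 10 passed the filter on low counts, so no member was dropped. RNA-seq was performed on Pax7-ZsGreen+ satellite cells, the resident stem cells of skeletal muscle, from hind limbs of adult mice of 3 to 4 months. Every mouse carried *Cxcr4* FL/FL and Pax7-ZsGreen and was given intraperitoneal tamoxifen at 80 mg/kg on 5 consecutive days and, per the study's methods, tamoxifen diet afterwards. The *Cxcr4* KO mice also carried Pax7-creERT2, which restricts the deletion to cells expressing *Pax7*, and the mice called WT had no cre, so they kept the floxed alleles. Freshly sorted cells, called quiescent (4 WT and 4 *Cxcr4* KO libraries), were compared with cells after an overnight culture in growth medium, called activated (2 WT and 2 *Cxcr4* KO libraries). The study's methods count samples in general as independent mice and give no number of mice for the sequenced libraries. Whether each library came from its own animal is therefore not known here, and p-values measure the spread between libraries, which may be technical.

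Alpha and beta tubulin form the heterodimer that polymerizes into microtubules, the filaments that carry vesicle traffic, position the nucleus and build the mitotic spindle. The isotypes are encoded by separate genes, are nearly identical over the folded body, and differ most in the acidic carboxy-terminal tail, where enzymes add or remove glutamates, glycines and a tyrosine. Myoblasts use microtubules for migration and division, and in differentiating muscle the array is rebuilt from the nuclear surface into long bundles.

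Quiescent libraries held 12775593 to 23717013 counts and activated libraries 3172164 to 5427280, so the activated groups were both smaller and shallower. Levels are in CPM, the counts after TMM factors have brought all libraries to 1 size, and in CPM per kb of exon where genes are compared with each other. Exon length takes all annotated exons of a gene together, which can exceed a single transcript. Ranks and shares per kb therefore depend partly on the annotation. One ribosomal RNA gene took 11.5 to 40.3% of the counts in activated and 0.295 to 0.807% in quiescent libraries. The Y-linked gene *Ddx3y* had 5392 to 12079 counts in quiescent and at most 10 in activated libraries, whereas *Xist* had 25 to 101 and 1030 to 4899 counts. Sex of the mice and cell state therefore cannot be told apart in any comparison of activated with quiescent cells. The summed level of 9 satellite cell markers was 3544 to 6207 CPM in quiescent and 1057 to 1643 CPM in activated libraries, with none of the 9 at 0 in any group. The sum of 7 mature fibre markers was 239 to 856 and 6158 to 15243 CPM, and that of 5 Schwann cell and nerve markers was 257 to 613 and 57.8 to 201 CPM. The other lists were 954 to 3179.8 and 1443 to 2129 CPM for 4 activated myoblast, 196 to 928 and 69.1 to 457 for 5 endothelial and 281 to 2950.4 and 239 to 721 for 5 fibroadipogenic progenitor markers. These sums hide genes that moved in different directions. In WT, *Ccnd1* stood at 48.7 to 94 and 307 to 359 CPM but *Mki67* at 17.8 to 51.1 and 7.01 to 18.3. Likewise *Pdgfra* stood at 4.86 to 9.97 and 8.66 to 18.8 CPM in WT but *Col3a1* at 493 to 866 and 50.8 to 68.5. Sums of 431 to 1684 and 161 to 313 CPM were found for 4 smooth muscle and pericyte markers, of 66.5 to 271 and 30.5 to 58.9 for 5 hematopoietic and of 19.7 to 31 and 6.13 to 12.5 for 4 platelet markers, where *Gp9* was at 0 in WT activated cells. The part of these lists in the tubulin results was not tested, and in bulk RNA fewer cells of a type and less RNA per cell cannot be told apart.

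*Cxcr4*, the targeted gene, whose exon 2 is floxed, was lower in quiescent *Cxcr4* KO libraries. The counts cover the whole gene and not the deleted exon alone. It stood at 61.2, 59.1, 89.6 and 112 CPM in WT and at 17.6, 21.2, 12.5 and 17.1 CPM in *Cxcr4* KO quiescent cells, and the groups did not overlap. In activated cells it stood at 33.3 and 14.4 CPM in WT and at 5.39 and 13.7 CPM in *Cxcr4* KO, so that the nearest libraries of the 2 genotypes differed by less than 1 CPM. In the edgeR quasi-likelihood test the quiescent difference was a log2 fold change of -2.24 (SE 0.31, adjusted p = 0.00477) and the activated difference a log2 fold change of -1.35 (SE 0.46, adjusted p = 0.381).

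The sequences are shown because they carry how alike the members are, and so how far their reads can be told apart. The first 4 codons, in capitals here, encode the stretch by which the ribosome-associated factor Ttc5 recognizes nascent tubulin when free dimers are in excess and the mRNA is degraded. They are printed as the first 24 coding bases, 5′ to 3′, of the GRCm38 transcripts in GENCODE M21. 
*Tuba1a*: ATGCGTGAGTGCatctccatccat
*Tuba1b*: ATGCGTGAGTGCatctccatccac
*Tuba1c*: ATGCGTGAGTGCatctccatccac
*Tuba4a*: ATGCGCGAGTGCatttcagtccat
*Tubb2a*: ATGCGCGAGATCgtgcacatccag
*Tubb2b*: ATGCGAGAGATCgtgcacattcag
*Tubb3*: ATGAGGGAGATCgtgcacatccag
*Tubb4b*: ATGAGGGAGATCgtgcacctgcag
*Tubb5*: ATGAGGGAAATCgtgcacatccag
The fourth codon was TGC in all 4 alpha members and ATC in all 5 beta members shown.

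The last 60 coding bases before the stop codon encode the tail. They are given for *Tubb2a* and *Tubb2b*, with capitals for the 3 bases of *Tubb2b* that differ from *Tubb2a* after alignment. 
*Tubb2a*: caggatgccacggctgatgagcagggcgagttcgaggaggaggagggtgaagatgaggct
*Tubb2b*: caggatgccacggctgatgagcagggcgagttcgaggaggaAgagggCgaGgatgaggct
Over the whole coding sequence *Tuba1a* and *Tuba1b* were 98.3% identical and *Tubb2a* and *Tubb2b* 96.5%, compared with 84.8% for *Tuba1a* and *Tuba4a* and 80.2% for *Tubb5* and *Tubb6*. Of the windows of 150 bases, the read length, along each transcript, 54.7% of *Tuba1a*, 57.9% of *Tuba1b*, 46.7% of *Tuba1c*, 27.9% of *Tubb2a*, 20.1% of *Tubb2b* and 16.8% of *Tubb4b* occurred unchanged in another gene. *Tuba4a*, *Tubb3*, *Tubb5* and *Tubb6* had 0 such windows. The shares include windows found in *Gm49450*, 26.1% of *Tuba1a* and 27% of *Tuba1b*. That gene overlaps exons of both in the genome, so not every such window marks a second place. Single windows also leave out that reads came in pairs. How reads that match several genes were counted is not given in the sources used here, so the values of the sharing genes are uncertain to that extent.

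Per kb of exon, *Tubb6* was the most abundant member in quiescent cells. Its level was 341 ± 69.7 CPM per kb in WT (SD, n = 4) and 333 ± 36.7 in *Cxcr4* KO (SD, n = 4). In WT quiescent cells *Tubb2a* followed at 215 ± 47.4 CPM per kb and then *Tuba1a* at 141 ± 16.4 and *Tubb4b* at 139.5 ± 16.4, which overlapped each other. *Tubb5*, *Tuba1c*, *Tubb2b*, *Tuba1b* and *Tuba4a*, at means of 69.1 down to 56.1 CPM per kb, overlapped from each to the next. *Tubb3*, the isotype used as a neuronal marker, was lowest at 2.09 ± 1.21 CPM per kb, apart from all others. In *Cxcr4* KO quiescent cells the neighbours from *Tubb6* to *Tuba1a* all overlapped in turn. In WT activated cells *Tubb6* was still highest at 193 ± 14.8 CPM per kb (SD, n = 2), and *Tubb5* stood next at 123 ± 0.989, apart from its neighbours on both sides. *Tuba1a* came eighth of 10 there at 22 ± 11.9 CPM per kb and *Tubb2b* ninth at 9.62 ± 2.81.

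**Figure D1:**
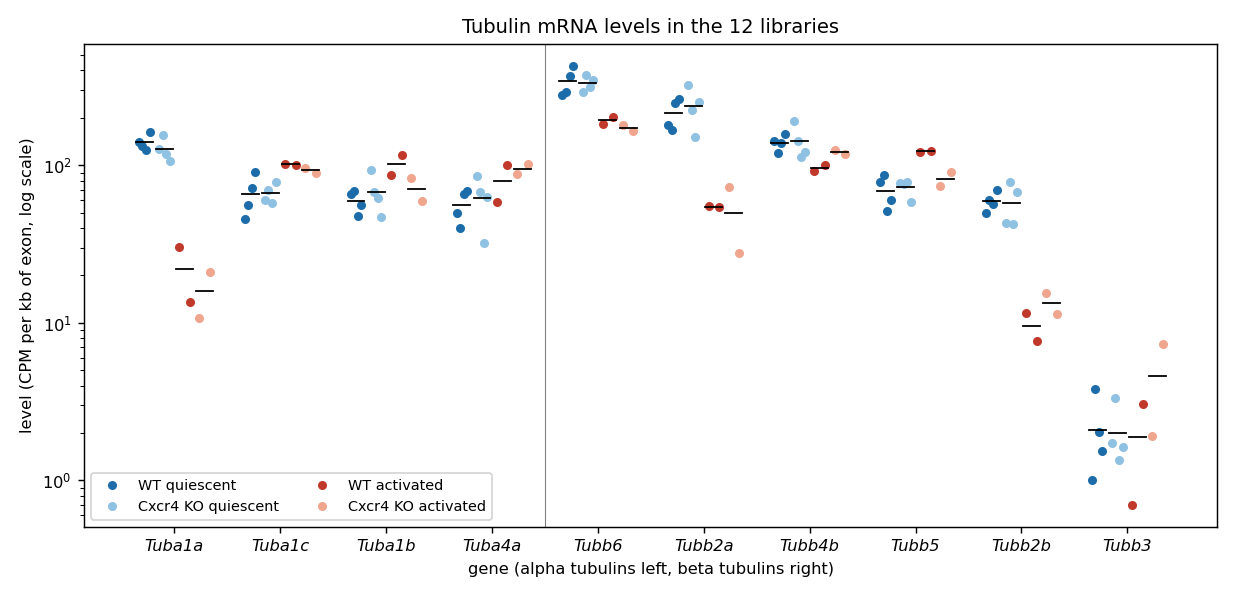
Level of each tubulin gene in CPM per kb of exon (log axis), one point per library, 4 quiescent and 2 activated libraries per genotype, with a black bar at the group mean. *Tuba1a*, *Tubb2a* and *Tubb2b* sit lower in all 4 activated libraries than in any of the 8 quiescent libraries, and the 2 genotypes overlap in the quiescent state.

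The comparison of activated with quiescent cells asked how the tubulin mRNAs moved as satellite cells left quiescence. A gene was called when its adjusted p fell below 0.05, its level changed more than 2-fold (log2 of 1 in either direction) and its TMM-normalized count averaged above 10 over the groups compared, with p-values adjusted by Benjamini-Hochberg over the 25771 genes tested. In WT, 3 of 10 members were called lower and 0 higher, whereas 15.7% of all genes tested were called lower and 9.59% higher. In *Cxcr4* KO, 3 of 10 were called lower and 0 higher, against 17.4% and 11% of all genes. The called members were *Tuba1a*, *Tubb2a* and *Tubb2b* in both genotypes. At an unadjusted p under 0.05, 3 members were higher and 4 lower in WT and 0 were higher and 4 lower in *Cxcr4* KO. DESeq2 gave the same numbers of calls, 3 lower and 0 higher in each genotype. It called 19.2% of the 21523 genes it tested lower and 12.7% higher in WT, and 21.9% and 13.8% in *Cxcr4* KO. Of the 25771 genes tested by edgeR, 10859 in WT and 11670 in *Cxcr4* KO had an unadjusted p under 0.05. The median log2 fold change of the 10 members was -0.42 in WT and -0.08 in *Cxcr4* KO, beside -0.92 and -0.96 over all genes tested. The medians of all genes, here and below, depended on the filter on low counts. Among genes whose counts averaged 10 or more they were -0.46 in WT and -0.49 in *Cxcr4* KO. Without any filter they were -1.93 and -1.84. The WT median of the members was thus close to that of all genes under the stricter filter.

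*Tuba1a* (ENSMUSG00000072235; chromosome 15, 98949837 to 98953703, minus strand, GRCm38), the alpha isotype best known from developing neurons, fell in both genotypes. *Tuba1a* stood at 255, 239, 226 and 295 CPM in the 4 WT quiescent libraries and at 54.9 and 24.5 CPM in the 2 WT activated libraries. Values of 229, 281, 214 and 191 CPM in quiescent and 19.3 and 38.1 CPM in activated cells were found in *Cxcr4* KO. No activated library reached a quiescent one. The change was a log2 fold change of -2.65 (SE 0.35, adjusted p = 1.25e-05) in WT, a 6.28-fold fall, and a log2 fold change of -2.99 (SE 0.36, adjusted p = 3.64e-06) in *Cxcr4* KO, a 7.95-fold fall. Without WT activated replicate 1 the WT value was -3.29 and without replicate 2 it was -2.15, and *Tuba1a* was called in both cases.

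The neighbours of *Tuba1a* on chromosome 15 did not follow it. *Tuba1b* (ENSMUSG00000023004; chromosome 15, 98931425 to 98934565, minus strand) encodes a broadly expressed alpha tubulin. *Tuba1b* stood at 123, 129, 89.1 and 104 CPM in the 4 WT quiescent libraries and at 163 and 219 CPM in the 2 WT activated libraries. Quiescent *Cxcr4* KO libraries stood at 176, 127, 117 and 88.1 CPM, and activated ones at 156 and 111 CPM. The WT groups did not overlap, and the *Cxcr4* KO groups did. The change was a log2 fold change of 0.78 (SE 0.27, adjusted p = 0.0385) in WT, past the adjusted p but short of the fold threshold, and a log2 fold change of 0.07 (SE 0.28, adjusted p = 0.848) in *Cxcr4* KO. Without WT activated replicate 1, *Tuba1b* was called higher in WT, at 1.05, and without replicate 2 its value was 0.61.

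*Tuba1c* (ENSMUSG00000043091; chromosome 15, 99029891 to 99038110, plus strand) is the remaining gene of this cluster. *Tuba1c* stood at 105, 128, 165 and 207 CPM in the 4 WT quiescent libraries and at 234 and 229 CPM in the 2 WT activated libraries. The *Cxcr4* KO libraries held 137, 159.8, 132 and 178 CPM in the quiescent and 221 and 204 CPM in the activated state. Within each genotype the activated libraries lay above the quiescent ones. The differences were a log2 fold change of 0.62 (SE 0.26, adjusted p = 0.0806) in WT and a log2 fold change of 0.49 (SE 0.26, adjusted p = 0.153) in *Cxcr4* KO, and neither passed the threshold.

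Because reads of the 3 *Tuba1* genes can be exchanged, their counts, with those of any pseudogene named after them, were also summed and tested as 1 gene. The 3 genes together stood at 483, 496, 480.4 and 606 CPM in WT quiescent and 452 and 473 CPM in WT activated libraries. In *Cxcr4* KO they stood at 542, 567, 462 and 457 CPM in quiescent and at 396 and 354 CPM in activated libraries. In both genotypes the activated libraries lay below the quiescent ones, by a smaller margin than for *Tuba1a* alone. The summed row changed by a log2 value of -0.16 (SE 0.23, adjusted p = 0.604) in WT and -0.44 (SE 0.24, adjusted p = 0.154) in *Cxcr4* KO, so that neither passed. A further 5 processed pseudogenes that share windows with these genes (*Gm14150*, *Gm3226*, *Gm3756*, *Gm5620* and *Gm6682*) and 2 more genes with 0 counts in every library, *Gm17383* and *Gm49450*, took 23.3% of the pooled count in *Cxcr4* KO activated replicate 2 and 0.966 to 4.51% in the other 11 libraries. With them added, a choice made after the values were seen, the summed changes were -0.14 (SE 0.23, adjusted p = 0.643) and -0.26 (SE 0.24, adjusted p = 0.379). *Gm49450* is annotated as a protein-coding gene on the same strand and covers 26.2% of the *Tuba1a* and 22.7% of the *Tuba1b* exon length.

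*Tuba4a* (ENSMUSG00000026202; chromosome 1, 75214228 to 75219865, minus strand), an alpha isotype that is abundant in mature muscle and whose gene does not encode the terminal tyrosine, did not pass in either genotype. *Tuba4a* stood at 184, 149, 243 and 255 CPM in the 4 WT quiescent libraries and at 216 and 373 CPM in the 2 WT activated libraries. Values of 318, 249, 119 and 234 CPM in quiescent and 326 and 379 CPM in activated cells were found in *Cxcr4* KO. In WT the groups overlapped, and in *Cxcr4* KO the activated libraries were the highest. The differences were a log2 fold change of 0.50 (SE 0.33, adjusted p = 0.24) and a log2 fold change of 0.62 (SE 0.33, adjusted p = 0.147). *Stk16*, on the opposite strand, covers 37.3% of its exon length, and whether the counts used strand is not given in the sources used here.

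*Tubb2a* (ENSMUSG00000058672; chromosome 13, 34074274 to 34078007, minus strand), a beta isotype abundant in brain, fell in both genotypes. *Tubb2a* stood at 291, 271, 398 and 425 CPM in the 4 WT quiescent libraries and at 88.7 and 87.6 CPM in the 2 WT activated libraries. Quiescent *Cxcr4* KO libraries stood at 523, 363, 245 and 405 CPM, and activated ones at 117 and 44.7 CPM. No activated library reached a quiescent one. The change was a log2 fold change of -1.97 (SE 0.38, adjusted p = 0.000485) in WT, a 3.93-fold fall, and a log2 fold change of -2.25 (SE 0.38, adjusted p = 0.000143) in *Cxcr4* KO, a 4.76-fold fall. The 2 *Cxcr4* KO activated libraries stood apart from each other, and the *Cxcr4* KO value was -3.10 without replicate 1 and -1.70 without replicate 2, called in both cases.

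*Tubb2b* (ENSMUSG00000045136; chromosome 13, 34126748 to 34130466, minus strand), its neighbour on chromosome 13 and a beta isotype best known from migrating neurons, fell with it. *Tubb2b* stood at 115, 139, 131 and 161 CPM in the 4 WT quiescent libraries and at 26.6 and 17.5 CPM in the 2 WT activated libraries. The *Cxcr4* KO libraries held 98.9, 181, 97.7 and 156 CPM in the quiescent and 35.4 and 26 CPM in the activated state. The states were again apart in both genotypes. The change was a log2 fold change of -2.60 (SE 0.34, adjusted p = 8.39e-06) in WT, a 6.08-fold fall, and a log2 fold change of -2.12 (SE 0.32, adjusted p = 4.87e-05) in *Cxcr4* KO, a 4.34-fold fall. Summed as 1 gene, with the named pseudogenes, *Tubb2a* and *Tubb2b* changed by -2.13 (SE 0.34, adjusted p = 8.42e-05) in WT and -2.22 (SE 0.34, adjusted p = 5.29e-05) in *Cxcr4* KO, so here the pooled row was called as each gene was. The sum of the Schwann cell and nerve markers given above was lower in activated libraries as well, and its part in the fall of these isotypes was not tested.

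*Tubb6* (ENSMUSG00000001473; chromosome 18, 67390717 to 67402749, plus strand), a beta isotype of non-neuronal cells that is raised in regenerating muscle, was lower in activated cells by less than the fold threshold. *Tubb6* stood at 677, 713, 897 and 1042 CPM in the 4 WT quiescent libraries and at 446 and 497 CPM in the 2 WT activated libraries. Values of 714, 914, 763 and 853 CPM in quiescent and 440.2 and 403 CPM in activated cells were found in *Cxcr4* KO. The states did not overlap. The difference was a log2 fold change of -0.82 (SE 0.26, adjusted p = 0.0218) in WT and a log2 fold change of -0.94 (SE 0.26, adjusted p = 0.00881) in *Cxcr4* KO. On the adjusted p alone, 6 of 10 members passed in WT and 4 of 10 in *Cxcr4* KO, beside 29.8% and 33.7% of all genes tested.

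*Tubb5* (ENSMUSG00000001525; chromosome 17, 35833921 to 35838306, minus strand), the main beta isotype of dividing cells, was higher in WT activated cells by less than the fold threshold. *Tubb5* stood at 260.3, 287, 172 and 199.9 CPM in the 4 WT quiescent libraries and at 406 and 410.3 CPM in the 2 WT activated libraries. Quiescent *Cxcr4* KO libraries stood at 258, 252, 260.4 and 194 CPM, and activated ones at 248 and 300.2 CPM. The WT states were apart, whereas 1 of the 2 *Cxcr4* KO activated libraries lay among the quiescent ones. The difference was a log2 fold change of 0.83 (SE 0.25, adjusted p = 0.0163) in WT and a log2 fold change of 0.19 (SE 0.25, adjusted p = 0.566) in *Cxcr4* KO.

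*Tubb4b* (ENSMUSG00000036752; chromosome 2, 25222160 to 25224702, minus strand), a widely expressed beta isotype of cytoplasmic and ciliary microtubules, did not pass in either genotype. *Tubb4b* stood at 297, 248, 288 and 332 CPM in the 4 WT quiescent libraries and at 192 and 210.2 CPM in the 2 WT activated libraries. The *Cxcr4* KO libraries held 399, 298, 236 and 254 CPM in the quiescent and 263 and 245 CPM in the activated state. The WT states were apart and the *Cxcr4* KO states overlapped. *Fam166a*, on the opposite strand, covers 5.79% of its exon length. The differences were a log2 fold change of -0.54 (SE 0.26, adjusted p = 0.12) and a log2 fold change of -0.22 (SE 0.25, adjusted p = 0.485).

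*Tubb3* (ENSMUSG00000062380; chromosome 8, 123411424 to 123422015, plus strand) was low throughout. *Tubb3* stood at 1.88, 7.1, 3.77 and 2.89 CPM in the 4 WT quiescent libraries and at 1.31 and 5.69 CPM in the 2 WT activated libraries. Values of 3.23, 6.22, 2.53 and 3.02 CPM in quiescent and 3.6 and 13.7 CPM in activated cells were found in *Cxcr4* KO. Its counts in activated cells were 8 and 13 in WT and 14 and 60 in *Cxcr4* KO, so 1 library held most of them. The differences were a log2 fold change of -0.30 (SE 0.72, adjusted p = 0.761) in WT and a log2 fold change of 1.22 (SE 0.62, adjusted p = 0.134) in *Cxcr4* KO. Without *Cxcr4* KO activated replicate 2 the second value was -0.041, so its direction rests on that library.

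**Figure D2:**
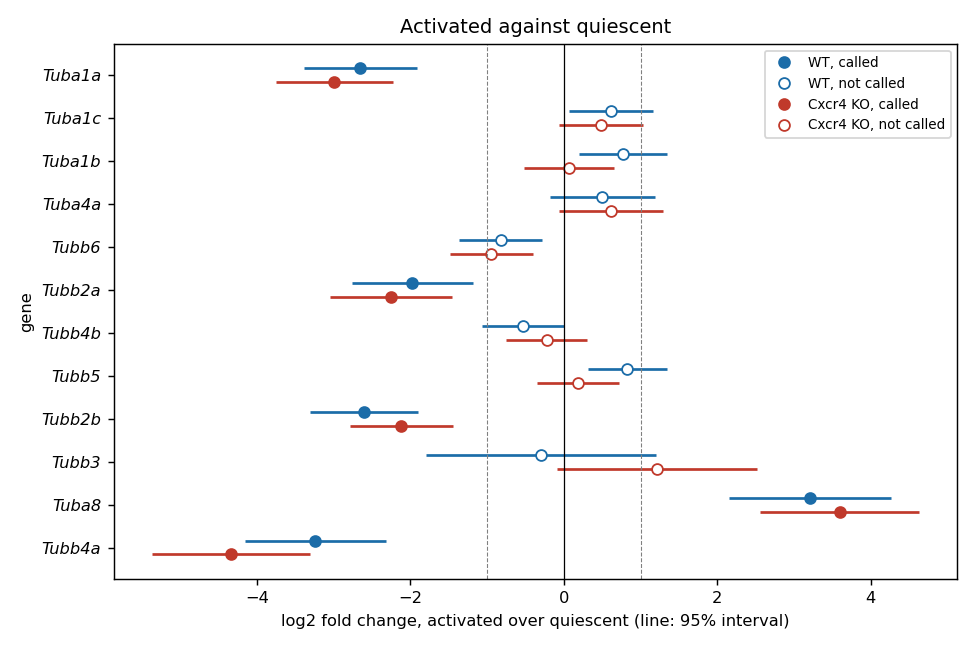
log2 fold change of activated over quiescent cells for the 10 tubulin genes and for *Tuba8* and *Tubb4a*, in WT and *Cxcr4* KO, with lines for the 95% interval, filled points for called genes and dashed lines at -1 and 1. Filled points of members lie between -1.97 and -2.99, and the open points of *Tuba1b*, *Tuba1c*, *Tuba4a* and *Tubb5* lie right of 0 in both genotypes.

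The RefSeq promoter table (GRCm38.p6) held 8 of the 10 members, and 2 windows of 120 bases before the RefSeq start site are printed, for *Tubb2a*, which fell, and for *Tubb5*, which was higher in both WT activated libraries than in any WT quiescent one. Capitals mark matches on either strand to 3 promoter elements. The first was the TATA box, searched with the letters TATAAA. The others were the CCAAT box, searched by the letters of its name, and the element bound by Sp1 proteins, the GC box, searched with the letters GGGCGG. 
*Tubb2a* (chr13:34078009-34078128, minus strand): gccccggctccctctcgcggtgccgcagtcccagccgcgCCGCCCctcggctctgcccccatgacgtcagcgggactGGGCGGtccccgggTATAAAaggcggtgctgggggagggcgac
*Tubb5* (chr17:35838302-35838421, minus strand): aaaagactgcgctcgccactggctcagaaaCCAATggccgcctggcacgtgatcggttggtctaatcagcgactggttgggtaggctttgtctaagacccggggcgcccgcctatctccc
The *Tubb2a* window held 1 TATA box, at -29, and 2 GC boxes. The *Tubb5* window held 1 CCAAT box, at -90. Among 32851 promoters in the table, 6.34% held a TATA box, 21.3% a CCAAT box and 26.5% a GC box in the same window. CANNTG (E-box) and TGANTCA (AP-1 site) were searched too and are not in capitals, and 40.2% and 3.41% of promoters held them. *Tubb5* had 1 E-box match, at -75, and neither gene had an AP-1 match. No other member in the table had a TATA box match there, *Tubb3* and *Tubb4b* also had CCAAT matches, and these matches describe letters only.

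The isotype make-up of both classes differed between the states. Of the summed alpha level per kb, *Tuba1a* made up 43.7 ± 2.67% in WT quiescent cells (SD, n = 4) and 7.52 ± 4.84% in WT activated cells (SD, n = 2). In *Cxcr4* KO its share was 39.4 ± 4.77% and 5.8 ± 2.77%. Quiescent libraries ranged from 34.6 to 46.8% and activated libraries from 3.84 to 10.9%, so that the states were far apart. The share of *Tuba1b* was 18.7 ± 4.32% and 33.2 ± 2.8% in WT, and 20.8 ± 4.28% and 25.8 ± 5.68% in *Cxcr4* KO. *Tuba1c* had 15.2 to 26.5% of the alpha level in quiescent and 30.3 to 36.8% in activated libraries. *Tuba4a* had 11.9 to 23.5% and 21 to 37.6%, with overlap.

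Among the beta members *Tubb6* had the largest mean share in every group, and its share was 31.5 to 44.7% in quiescent and 38.4 to 41.4% in activated libraries, with full overlap. The share of *Tubb2a* was 21.7 to 34.9% in quiescent and 6.62 to 15.4% in activated libraries. That of *Tubb5* was 8.66 ± 3.05% and 25.6 ± 0.882% in WT, and 8.68 ± 1.81% and 18.7 ± 4.04% in *Cxcr4* KO. Shares add to 100% within a class, so a fall of 1 gene raises the others, and no test was made on them.

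**Figure D3:**
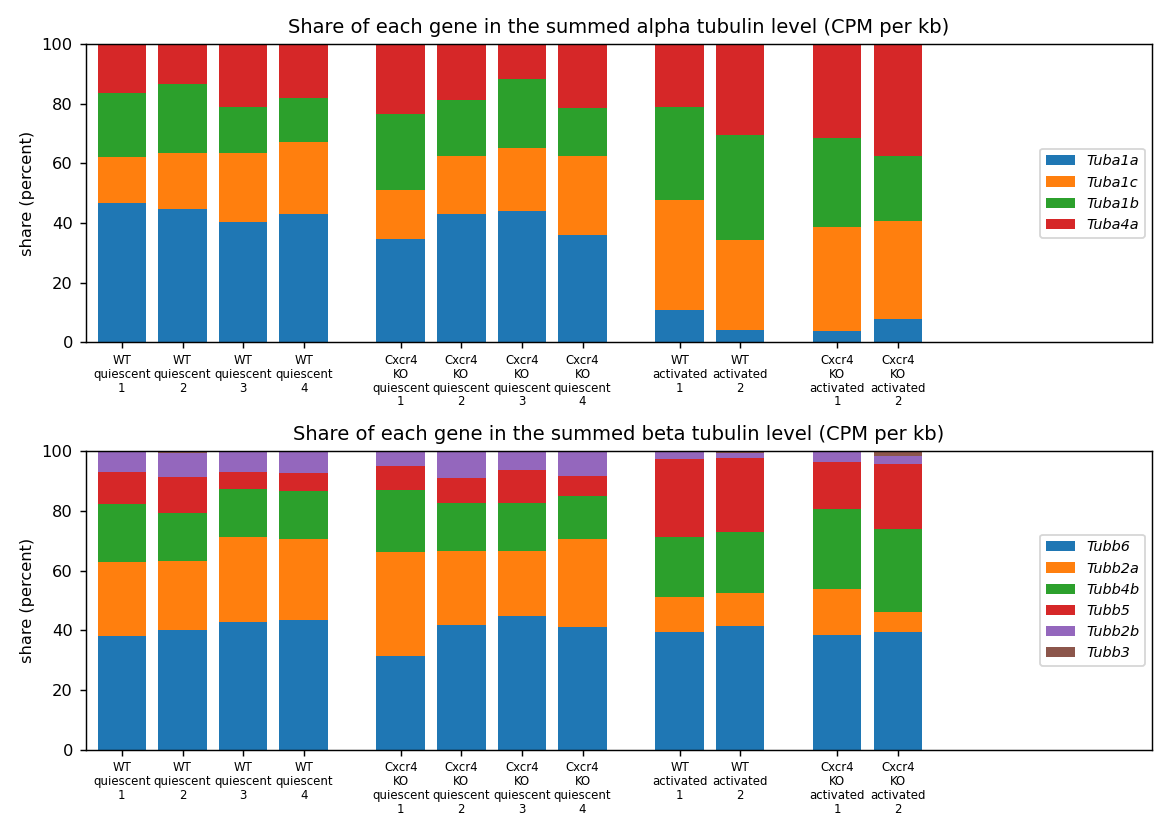
Share of each gene, in percent, in the summed level (CPM per kb) of the 4 alpha members (top) and the 6 beta members (bottom), one bar per library. The *Tuba1a* segment is 34.6 to 46.8% in the 8 quiescent bars and 3.84 to 10.9% in the 4 activated bars, and the *Tubb6* segment is of like size in both states.

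The summed alpha level did not differ in the same way as the summed beta level. Alpha members together stood at 302, 298, 311 and 378 CPM per kb in WT quiescent and at 278 and 331 in WT activated libraries. In *Cxcr4* KO they stood at 367, 361, 271 and 294 CPM per kb in quiescent and at 278 and 272 in activated libraries. Within both genotypes the states overlapped. Beta members together stood at 730.2, 731, 864 and 982 CPM per kb in WT quiescent and at 464 and 493 in WT activated libraries. In *Cxcr4* KO they stood at 931, 901, 700.5 and 851 CPM per kb in quiescent and at 471 and 419.6 in activated libraries. Here every activated library was below every quiescent one, with means of 827 ± 121 and 479 ± 20.3 CPM per kb in WT (SD, n = 4 and n = 2). The ratio of beta to alpha was 2.41, 2.46, 2.78 and 2.59 in WT quiescent and 1.67 and 1.49 in WT activated libraries. In *Cxcr4* KO it was 2.54, 2.5, 2.59 and 2.9 in quiescent and 1.69 and 1.54 in activated libraries. The ratio thus separated the 8 quiescent from the 4 activated libraries, and it is given as a description because exon lengths and shared reads enter both sums.

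**Figure D4:**
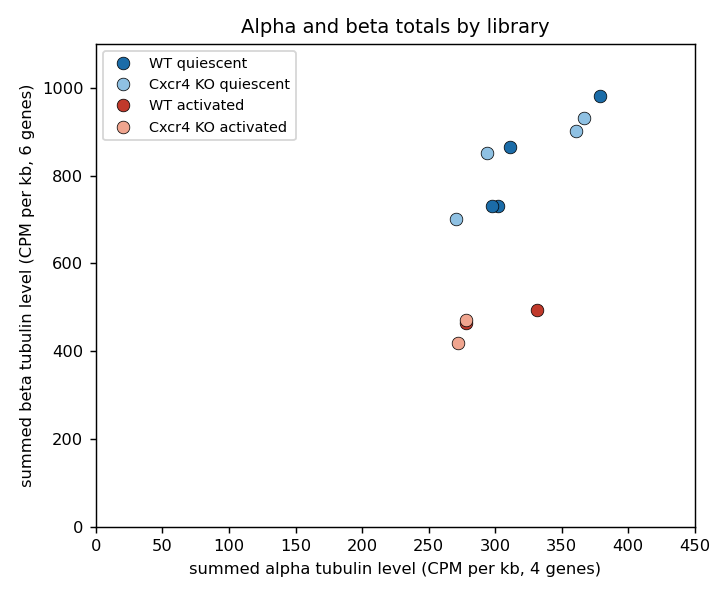
Summed level of the 6 beta tubulin genes against that of the 4 alpha tubulin genes in CPM per kb, one point per library, both axes from 0. The activated libraries sit at 420 to 493 on the beta axis, below all quiescent libraries at 700.5 to 982, while their alpha values of 272 to 331 lie within the quiescent range of 271 to 378.

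The comparison of *Cxcr4* KO with WT within a state asked whether loss of the receptor altered these mRNAs. In quiescent cells 0 of 10 members were called, and 0.0155% of all genes tested were. Differences ran from -0.15 for *Tuba1a* to 0.19 for *Tuba1b* on the log2 scale, and the 2 genotypes overlapped for all 10. The share of all genes with such an overlap was not counted, so it says little about the members. At an unadjusted p under 0.05 there were 0 members by edgeR and 0 by DESeq2, which also called 0, beside 0.0107% of all genes it tested. By edgeR, 448 of all 25771 genes had such a p. The 95% intervals, from the SE and the degrees of freedom of the test, stayed between -0.67 and 0.73 for 9 members, for example -0.46 to 0.39 for *Tubb6* and -0.67 to 0.37 for *Tuba1a*. For *Tubb3* the interval was -1.13 to 1.01, so a difference near 2-fold was not detectable at its depth.

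In activated cells, with 2 libraries per genotype, 0 of 10 members were called by edgeR, beside 0.0504% of all genes tested. At an unadjusted p under 0.05 there were 0 by edgeR, beside 2158 of 25771 genes, and 1, *Tubb5*, by DESeq2. DESeq2 called 0 members, beside 0.982% of the 15280 genes it tested. *Tubb5* stood at 406 and 410.3 CPM in WT and 248 and 300.2 CPM in *Cxcr4* KO, and the genotypes did not overlap. Its difference was a log2 fold change of -0.57 (SE 0.30, adjusted p = 0.623), with a 95% interval of -1.19 to 0.04. *Tuba1b*, 163 and 219 CPM in WT and 156 and 111 CPM in *Cxcr4* KO, was also lower in both *Cxcr4* KO libraries, by a log2 fold change of -0.51 (SE 0.33, adjusted p = 0.723) with a 95% interval of -1.20 to 0.17. *Tubb4b* was higher in both *Cxcr4* KO libraries, with a log2 fold change of 0.34 (SE 0.29, adjusted p = 0.857). *Tuba1c* and *Tubb6* were lower in both *Cxcr4* KO libraries too, with log2 fold changes of -0.13 and -0.16. With 2 libraries per genotype a lack of overlap is weak evidence, and its share over all genes was not counted. The other members overlapped, with values from -0.49 for *Tuba1a* to 1.45 for *Tubb3*, and the *Tubb3* value was 0.11 without *Cxcr4* KO activated replicate 2. For the 3 members that fell on activation, the intervals of *Cxcr4* KO against WT were -1.26 to 0.28 for *Tuba1a*, -0.96 to 0.71 for *Tubb2a* and -0.28 to 1.19 for *Tubb2b*, wide enough to hold changes past the fold threshold for *Tuba1a* and *Tubb2b*.

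The difference of the KO effect between the states, which is also the difference of the activation effect between the genotypes, was tested as an interaction. By edgeR it was called for 0 of 10 members and for 0% of all genes, with 0 members at an unadjusted p under 0.05, beside 1699 of 25771 genes. By DESeq2 it was called for 0 members, beside 0.327% of the 14388 genes tested, with 0 members at an unadjusted p under 0.05. The smallest p among members was 0.0906 for *Tubb5*, at -0.64 (SE 0.36, adjusted p = 0.821). *Tuba1b* had -0.70 (SE 0.40, adjusted p = 0.823). Activation values of *Tubb5* and *Tuba1b* that passed the adjusted p in WT and not in *Cxcr4* KO were thus not shown to differ between the genotypes.

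**Figure D5:**
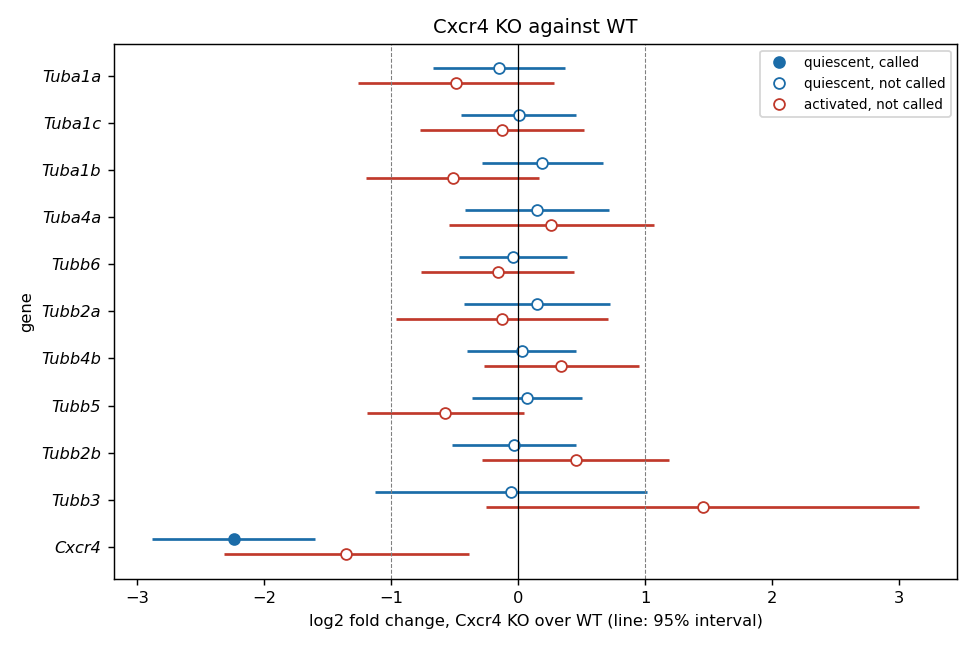
log2 fold change of *Cxcr4* KO over WT for the 10 tubulin genes and *Cxcr4*, in quiescent and activated cells, with lines for the 95% interval, filled points for called genes and dashed lines at -1 and 1. Only *Cxcr4* in quiescent cells is filled, and the activated lines are wider than the quiescent ones.

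Of 10 other tubulin genes, 9 passed the filter on low counts. In WT, 3 were called higher and 3 lower in activated cells, and in *Cxcr4* KO 1 was called higher and 1 lower. Of all genes tested, 9.59% were called higher and 15.7% lower in WT, and 11% and 17.4% in *Cxcr4* KO. The median log2 fold change of the tested genes of this group was -1.66 in WT and -1.29 in *Cxcr4* KO (-0.92 and -0.96 over all genes), and -0.31 and -0.30 with the gene at 0 in activated cells set at its bound. *Tuba3b* was the gene not tested, and *Tuba3a* and *Tubal3* had at most 17 and 13 counts in any library. *Tuba8*, an alpha isotype of muscle and testis, rose in both genotypes. In WT it stood at 2.87, 2.98, 1.89 and 0.867 CPM in quiescent and at 10.3 and 30.2 CPM in activated libraries, and in *Cxcr4* KO at 2.5, 2.8, 2.87 and 1.09 CPM in quiescent and 19.8 and 36.3 CPM in activated libraries. Its rise was a log2 fold change of 3.21 (SE 0.51, adjusted p = 7.23e-05) in WT and a log2 fold change of 3.60 (SE 0.50, adjusted p = 1.51e-05) in *Cxcr4* KO. The mature fibre markers given above were higher in the same libraries, and their part was not tested.

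*Tubb4a*, a beta isotype of neurons and oligodendrocytes, fell in both genotypes. It stood at 22.3, 21.5, 27.7 and 27 CPM in WT quiescent and 3.1 and 1.75 CPM in WT activated libraries, and in *Cxcr4* KO at 20.6, 28.4, 27.2 and 12.5 CPM in quiescent and 1.28 and 0.913 CPM in activated libraries. The fall was a log2 fold change of -3.24 (SE 0.44, adjusted p = 1.43e-05) in WT and a log2 fold change of -4.34 (SE 0.49, adjusted p = 1.72e-06) in *Cxcr4* KO. Activated libraries held 4 to 19 *Tubb4a* counts each. None of the other tubulin genes was called between *Cxcr4* KO and WT in either state by edgeR or DESeq2. *Tubg2*, in activated cells, had an unadjusted p under 0.05 by edgeR (log2 fold change 2.33, adjusted p = 0.595).

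The gamma, delta and epsilon tubulins act at centrosomes and centrioles rather than in the microtubule wall. *Tubg1*, the gamma tubulin of dividing cells, stood at 7.94, 11, 7.9 and 7.9 CPM in WT quiescent and 19.6 and 20.1 CPM in WT activated libraries and rose by a log2 fold change of 1.20 (SE 0.37, adjusted p = 0.019). In *Cxcr4* KO its value was a log2 fold change of 0.99 (SE 0.37, adjusted p = 0.043), just under the fold threshold. *Tubg2* fell in WT from 82, 84, 194 and 82 counts to 1 and 3 counts per library, with a log2 fold change of -3.34 (SE 0.99, adjusted p = 0.0152), but in *Cxcr4* KO its value was a log2 fold change of -0.30 (SE 0.73, adjusted p = 0.752). The *Cxcr4* KO counts of *Tubg2* were 92, 37, 119 and 33 in quiescent and 2 and 22 in activated libraries, and without *Cxcr4* KO activated replicate 2 the *Cxcr4* KO value was -2.72 (SE 1.16, adjusted p = 0.124). The *Tubg2* difference of *Cxcr4* KO and WT in activated cells was -0.16 (SE 1.46, adjusted p = 1) without that library. The difference between genotypes for *Tubg2* had an unadjusted p of 0.0223 and did not pass (adjusted p = 0.682). *Tubd1* rose in WT by a log2 fold change of 1.87 (SE 0.64, adjusted p = 0.0328) on 17 and 12 activated counts. *Tube1*, with 42, 26, 42 and 39 counts in WT quiescent and 0 and 1 in WT activated libraries, had a quiescent-to-activated ratio of 16.3 with an exact 95% counting interval of 2.88 to 648. In *Cxcr4* KO, *Tubd1* and *Tube1* were not called. Calls lost among the gamma, delta and epsilon tubulins when 1 library was left out are given with their log2 fold change. In WT, *Tubd1* (1.85) without WT quiescent replicate 2, and *Tubd1* (1.84) without WT quiescent replicate 3 did not pass. In WT, *Tubg1* (1.29), *Tubg2* (-2.03), *Tubd1* (2.37) and *Tube1* (-2.05) without WT activated replicate 1, and *Tubg1* (1.24) and *Tubd1* (1.44) without WT activated replicate 2 did not pass. *Tubb1*, the platelet isotype, had at most 3 counts in any activated library and was not called.

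The chaperones that fold new tubulin were next compared. Prefoldin hands nascent tubulin to the chaperonin CCT, and the tubulin cofactors then assemble the heterodimer. Of 15 genes for chaperonin, prefoldin and the CCT co-factor *Pdcl3*, 6 were called higher and 0 lower in WT activated cells, and 6 higher and 0 lower in *Cxcr4* KO, with medians of 0.75 and 0.61 on the log2 scale. For these and the following lists, the shares of all genes called higher and lower were 9.59% and 15.7% in WT and 11% and 17.4% in *Cxcr4* KO, and the medians of all genes were -0.92 and -0.96. These medians of all genes move with the filter on low counts, as described for the members. At an unadjusted p under 0.05, 1 of the 15 was lower in each genotype, and DESeq2 also called 0 lower. *Pfdn6*, a prefoldin subunit, stood at 22.4 to 29.2 CPM in WT quiescent and 145 to 150.2 CPM in WT activated libraries and rose, with a log2 fold change of 2.48 (SE 0.22, adjusted p = 1.41e-07). The prefoldin subunits *Pfdn4* and *Pfdn2* rose in WT, with log2 fold changes of 1.26 and 1.04, and were not called in *Cxcr4* KO. The CCT subunit *Cct6a* rose, with a log2 fold change of 1.55 (SE 0.26, adjusted p = 0.000147) in WT and 1.70 in *Cxcr4* KO.

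Of 7 cofactor genes, 3 were called higher and 0 lower in WT, and 2 higher and 1 lower in *Cxcr4* KO, with medians of 0.57 and 0.58. No cofactor was lower in WT at an unadjusted p under 0.05, and DESeq2 gave the same counts. *Tbcc*, which triggers release of the finished dimer, stood at 11.5 to 27.1 CPM in WT quiescent and 106 to 160.3 CPM in WT activated libraries and rose, with a log2 fold change of 2.81 (SE 0.29, adjusted p = 7.1e-07). *Tbcel*, a relative of cofactor E that destabilizes tubulin, stood at 23.8 to 38.8 CPM in WT quiescent and 139 to 189 CPM in WT activated libraries and rose, with a log2 fold change of 2.36 (SE 0.24, adjusted p = 6.54e-07). *Tbca*, which binds beta tubulin, rose in WT, with 1.12. Among the 4 genes of tubulin mRNA autoregulation, *Cnot11* rose and *Scaper* fell in both genotypes, and the list medians were -0.40 and -0.71. *Cnot11*, a subunit of the CCR4-NOT deadenylase, had 1.12 in WT and 1.13 in *Cxcr4* KO. *Scaper*, the adaptor between Ttc5 and CCR4-NOT, went from 453 to 1 count from the WT quiescent to the WT activated libraries, a quiescent-to-activated ratio of 49.6 in CPM with an exact 95% counting interval of 8.85 to 1962. *Ttc5* itself, named after its values were seen, was not called, at -0.14 in WT and -0.55 in *Cxcr4* KO.

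Proteins that bind the microtubule wall and its plus ends were compared next. Of 14 structural microtubule-associated genes, 6 were called lower and 0 higher in each genotype, with medians of -1.12 in WT and -0.89 in *Cxcr4* KO, beside -0.92 and -0.96 over all genes. No gene of this list was higher at an unadjusted p under 0.05 by edgeR or DESeq2. *Map2*, a stabilizer of dendritic microtubules, stood at 118 to 152 CPM in WT quiescent and 5.39 to 6.57 CPM in WT activated libraries and fell, with a log2 fold change of -4.54 (SE 0.33, adjusted p = 2.39e-08). *Map7d1*, *Mapt* and *Map1b* fell as well, with log2 fold changes of -2.25, -2.19 and -1.80. Of 10 plus-end tracking genes, 4 were called lower and 0 higher in WT, and 4 lower and 1 higher, *Slain2*, in *Cxcr4* KO, with medians of -0.65 and -0.37. None was higher in WT at an unadjusted p under 0.05, and DESeq2 called 3 lower and 0 higher there. The end-binding genes *Mapre3*, *Mapre1* and *Mapre2* fell in both genotypes, with WT log2 fold changes of -3.50, -1.60 and -1.03, and *Clasp2*, which stabilizes plus ends, fell in WT, with -1.19.

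Of 20 genes for enzymes that modify tubulin after folding, 1 was called higher and 7 lower in WT, and 1 higher and 8 lower in *Cxcr4* KO, with medians of -0.83 and -1.04 (-0.95 in *Cxcr4* KO with genes at 0 counts set at their bound). All genes had medians of -0.92 and -0.96, and 15.7% of them were called lower in WT and 17.4% in *Cxcr4* KO. *Ttll12*, a member of the tyrosine ligase-like family, stood at 4.34 to 11.8 CPM in WT quiescent and 45.1 to 57.4 CPM in WT activated libraries and rose, with a log2 fold change of 2.51 (SE 0.32, adjusted p = 7.37e-06). *Hdac6*, the main tubulin deacetylase, stood at 57.5 to 67.5 CPM in WT quiescent and 6.13 to 15.5 CPM in WT activated libraries and fell, with a log2 fold change of -2.44 (SE 0.36, adjusted p = 3.56e-05). *Agbl2*, a carboxypeptidase that trims the tail, and *Ttll6*, a glutamylase, had 0 counts in both WT activated libraries, and against a floor of 3 counts over the group they were at least 6.42-fold and at least 5.36-fold lower. This bound covers counting error only.

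Of 9 genes of the gamma tubulin ring complex, which nucleates microtubules, 2 were called higher and 2 lower in each genotype, with medians of -0.20 and -0.02. *Mzt1* and *Nedd1* rose in WT, with log2 fold changes of 1.35 and 1.19, and *Mzt2* and *Cdk5rap2* fell, with -1.90 and -1.84. Of 13 stathmins, severing enzymes and depolymerases, 0 were called higher and 2 lower in WT, and 1 higher and 4 lower in *Cxcr4* KO. The medians were -0.04 and -1.62. At an unadjusted p under 0.05, 2 were higher in WT, and DESeq2 called 1 higher and 3 lower there. Genes near the floor enter the *Cxcr4* KO median. Over the *Cxcr4* KO activated libraries *Kif2c* had 0 counts, *Stmn3* and *Katnal2* 1 each, and *Stmn2* and *Stmn4* 3 each. The difference of the KO effect between states was called for 0 of these 13 genes. *Katna1*, the katanin catalytic subunit, fell in WT, with a log2 fold change of -2.11 (SE 0.66, adjusted p = 0.0211). *Kif2c*, the mitotic depolymerase, had 341 counts over the WT quiescent and 2 over the WT activated libraries, a quiescent-to-activated ratio of 18.7 in CPM with an exact 95% counting interval of 5.13 to 155. Of the 92 genes in these 8 lists, 0 were called between *Cxcr4* KO and WT in either state by edgeR. At an unadjusted p under 0.05 there were 0 in quiescent cells by edgeR and 0 by DESeq2, and in activated cells 6 higher and 2 lower by edgeR. Of the 25771 genes edgeR tested, 448 in quiescent and 2158 in activated cells had such a p. In activated cells DESeq2 called 2 higher and 1 lower, beside 0.982% of the 15280 genes it tested. These were *Slain2* and *Clasp2*, higher, and *Fignl1*, lower, with edgeR log2 fold changes of 1.06 (adjusted p = 0.201), 1.28 (adjusted p = 0.201) and -3.98 (adjusted p = 0.108), and they are named after their values were seen. Calls lost among the genes named from these lists when 1 library was left out are given with their log2 fold change. In WT, *Pfdn4* (1.14), *Pfdn2* (0.89) and *Nedd1* (1.08) without WT quiescent replicate 1, and *Pfdn4* (1.14), *Pfdn2* (0.996) and *Mapre2* (-0.96) without WT quiescent replicate 2 did not pass. In WT, *Nedd1* (1.06) without WT quiescent replicate 3, and *Nedd1* (1.23) without WT quiescent replicate 4 did not pass. In WT, *Mapre2* (-0.999) without *Cxcr4* KO quiescent replicate 2 did not pass. In WT, *Pfdn4* (0.93), *Tbca* (1.17), *Clasp2* (-0.80), *Agbl2*, *Ttll6* and *Nedd1* (0.95) without WT activated replicate 1, and *Pfdn2* (0.86), *Tbca* (1.20), *Map1b* (-1.47), *Mapre2* (-0.57), *Ttll6*, *Nedd1* (1.48) and *Katna1* (-1.38) without WT activated replicate 2 did not pass. In WT, *Mapre2* (-0.97) without *Cxcr4* KO activated replicate 2 did not pass. In *Cxcr4* KO, *Ttll6* without *Cxcr4* KO quiescent replicate 2, and *Map1b* (-0.80) without *Cxcr4* KO quiescent replicate 4 did not pass. In *Cxcr4* KO, *Map1b* (-1.38), *Ttll6* and *Nedd1* (1.46) without *Cxcr4* KO activated replicate 1, and *Scaper* (-1.66), *Map1b* (-1.15), *Ttll6* and *Nedd1* (1.26) without *Cxcr4* KO activated replicate 2 did not pass.

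For the 3 members with the highest mean level per kb, the genes with the most similar pattern over the 12 libraries were found by the mean absolute difference of log2 CPM after centring each gene. For *Tubb6* they were *Rps9*, *Rps28* and *Ensa*, at 0.0859 to 0.0902 on the log2 scale, where the median of all genes was 0.865. For *Tubb2a* they were *Evl*, *Thoc6* and *Tcirg1*, at 0.155 to 0.209 beside a median of 0.977, and for *Tubb4b* they were *Kri1*, *Kifbp* and *Opa3*, at 0.136 to 0.14 beside 0.891. No other tubulin gene was among them. The 12 libraries share their states and their depth, so this is a description of the profiles.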

How the data were processed

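RNA of 12 libraries was sequenced as 2 × 150 base pairs. The labels name polyA RNA. Per the study's methods, the authors trimmed reads with Trim Galore 0.6.0, mapped them to GRCm38.p6 with STAR 2.7.2a and counted reads on GENCODE M25 genes with Rsubread, and they deposited raw counts per gene for 55401 genes. The authors also deposited FPKM, 1 value per group with pooling not stated. The deposited FPKM of the members was 0.97 to 1.05 times the level computed here from counts and was used only for that check.

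Groups came from the sample labels. Counts were filtered with filterByExpr, scaled by TMM and fitted in edgeR 4.0.16 (R 4.3.3) with a mean per group over all 12 libraries. Contrasts used the quasi-likelihood test with Benjamini-Hochberg adjustment over 25771 genes, SEs came from the F statistic, and profiles for likeness used log2 CPM with a prior of 2 counts. Exon lengths, overlaps and 150-base windows came from GENCODE M21 transcripts on GRCm38, not the release used for counting, and promoters from RefSeq. The fit was also run on simulated counts with 200 changed genes, as many up as down, and all other genes equal between groups. Activation calls in the data covered far more genes, more of them lower than higher. The simulation therefore cannot check the scaling under such a shift, and its outcome is not reported here. The table of proteins was not used here, so no amino acids are given.

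The members, gene lists, marker lists and naming rule were chosen with earlier results of these data known. Named were all members, *Cxcr4*, other tubulin genes called or with a mean count over 10, and per list at most the 4 called genes with the largest change in WT. Alternatives were DESeq2 1.42.0, its size factors within edgeR, 2 other filters, a robust fit, edgeR on the compared groups, a replicate block, removal of the ribosomal RNA gene, the adjusted p alone, summed paralogs and leaving out each library.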

Additional observations from a re-analysis of the deposited data

Results flagged for a closer look

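In *Cxcr4* KO quiescent cells, *Tubb5* stood at 194 CPM in replicate 4, and the nearest other library stood at 252 CPM, a gap of 0.871 of the whole range of the group. Of the 20 groups of 4 libraries examined for the 10 members, 1 was singled out by a gap of this kind, and chance singles out about 1 in 20.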

How the results depend on the processing

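The calls of *Tuba1a*, *Tubb2a* and *Tubb2b* on activation held in both genotypes under every alternative that kept the genes separate, and no member was called between *Cxcr4* KO and WT under any alternative. Summing paralogs left 1 member called in WT and 1 in *Cxcr4* KO, since the *Tuba1* sum did not pass. The adjusted p alone gave 6 in WT. With 1 library left out, 3 to 4 members were called in WT, the fourth being *Tuba1b*, and 3 in *Cxcr4* KO. Where this left 1 activated library, it was assumed to vary like the other groups. *Cxcr4* stayed called in quiescent cells, at -2.35 to -2.03, and was not called in activated cells, at -2.24 to -0.69. Calls over all genes between *Cxcr4* KO and WT ran from 3 to 46 in quiescent cells (4 in the reported fit), from 0 to 325 in activated cells (13) and from 0 to 170 for the difference between states (0), highest without the filter on low counts. The median of all genes on activation in WT was -0.92 with TMM and -0.86 with DESeq2 size factors within edgeR. It moved more under other settings. It was -0.46 among genes whose counts averaged 10 or more, -0.56 with edgeR on the compared groups and -0.68 with DESeq2. Without a filter on low counts it was -1.93. In WT, 3894 of 18738 genes were called lower under the stricter filter, beside 4043 of 25771 in the reported fit.

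Directions near 0 changed under some settings, all without a call. Removing the ribosomal RNA gene turned *Tuba1c* in quiescent *Cxcr4* KO against WT to -0.013. Leaving out each library in turn gave ranges of log2 fold change that crossed 0. For *Cxcr4* KO against WT in activated cells they ran from -1.12 to 0.13 for *Tuba1a*, from -0.18 to 0.63 for *Tuba4a* and from -0.995 to 0.35 for *Tubb2a*. For the difference of the KO effect between states they ran from -0.97 to 0.28 for *Tuba1a*, from -0.32 to 0.0098 for *Tuba1c*, from -0.31 to 0.49 for *Tuba4a* and from -1.14 to 0.21 for *Tubb2a*. For activation in *Cxcr4* KO they ran from -0.19 to 0.31 for *Tuba1b* and from -0.041 to 1.88 for *Tubb3*. For *Cxcr4* KO against WT in quiescent cells they ran from -0.0093 to 0.33 for *Tuba1b*, from -0.14 to 0.19 for *Tuba1c*, from -0.049 to 0.36 for *Tuba4a*, from -0.036 to 0.31 for *Tubb2a*, from -0.21 to 0.090 for *Tubb2b*, from -0.41 to 0.39 for *Tubb3*, from -0.15 to 0.12 for *Tubb4b*, from -0.049 to 0.20 for *Tubb5* and from -0.12 to 0.089 for *Tubb6*. For activation in WT they ran from -1.51 to 0.63 for *Tubb3*. For *Tuba4a*, *Tuba1c*, *Tubb3* and the other members listed, the cause was not tested.

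Whether replicate numbers pair the libraries is not known. Correlations of deviations between quiescent WT and *Cxcr4* KO libraries of the same number were 0.050, 0.12, -0.050 and 0.30 for replicates 1 to 4. *Cxcr4* KO quiescent replicates 1, 2 and 4 correlated best with the WT library of their own number, and replicate 3 did not. Total counts of these pairs, WT then *Cxcr4* KO, were 17532019 and 17238391, 12775593 and 13075208, 23058947 and 22897189, and 22785815 and 23717013. With 2 activated libraries per group, every such correlation has the same size, 0.024, with either sign, so it cannot decide. A fit with the replicate block called 3 members on activation in WT, 3 in *Cxcr4* KO and 0 in the other comparisons. With the block, *Tuba1b* on activation in *Cxcr4* KO was -0.14, and *Tubb3* in quiescent *Cxcr4* KO against WT was 0.031, both with the direction reversed. Over all genes the block gave 23 calls in place of 13 between *Cxcr4* KO and WT in activated cells and 6 in place of 0 for the difference between states.

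The main limits are 2 libraries per activated group, their low depth, the shared sequence of the *Tuba1* and *Tubb2* genes, and the change of sex with state. Counting intervals cover counting error only.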
